A study of Caenorhabditis elegans with 18 samples.

Results

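The C. elegans genes described here have only a sequence name, such as C14C6.5, in the annotation used or have no entry in it. Their RNA was 4 times as high or more in hira-1(-) animals as in N2 animals at the L4 larval stage and again in adults. Members were chosen by these measured values. For each row of the counts table, CPM (the count scaled to the library total) were averaged over 2 libraries per group, 0.1 was added, and the ratio of hira-1(-) to N2 had to be 4 or more at both stages with a mean of at least 0.5 CPM in hira-1(-) at both. Of 45461 rows, 18173 carry only a sequence name and lie outside the C17A2 and MTCE names, and 131 of these met the limits. With the same limits, 114 genes that have a gene name also passed.

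The series holds 18 RNA samples from animals kept at 20 °C with E. coli OP50 as food. The mutant is the strain MT23643, which carries hira-1(gk835598), written hira-1(-) and described in the series as a null, and the other strain is the laboratory wild type N2. The values below come from 8 libraries of poly(A)-selected RNA from whole animals, 2 each of hira-1(-) L4, N2 L4, hira-1(-) adult and N2 adult, and the L1 samples and the third replicates were not analysed here. All mutant libraries come from 1 strain, so the allele and any other difference of that strain from N2 cannot be told apart. Nothing in the labels tells whether replicates were separate cultures, and the p-values reflect no more than the spread of these libraries, which could be technical.

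HIRA is a chaperone that places the histone variant H3.3 into chromatin outside DNA replication, and H3.3 is a mark of nucleosomes that are replaced in non-dividing or transcribed chromatin. A sequence name in C. elegans joins the name of a cosmid or other clone to a number, and a gene keeps only that name until a gene name is assigned to it. Such genes are often short, rapidly evolving or expressed at low levels, and the annotation used here gives their chromosome and type but no function. No role is therefore given for the members.

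Libraries held 26010307 to 31174599 estimated counts. RNA of hira-1, the targeted gene, was lower in the mutant, at 23.7 and 25.3 CPM in hira-1(-) L4 libraries against 37.4 and 32.9 CPM in N2 L4 libraries (log2 fold change -0.52, adjusted p 3.3e-05, edgeR's quasi-likelihood test). In adults it stood at 40.7 and 40.03 CPM in hira-1(-) against 108 and 109 CPM in N2 (log2 fold change -1.43, adjusted p 2.0e-09). CPM are given on library sizes scaled by TMM except where the rule's own scale is named, and all 131 members passed the filter on low counts that left 16770 genes for testing. Of all genes tested, 35.5% were called higher and 22.6% lower in hira-1(-) at L4 (adjusted p under 0.05), and 28.6% higher and 26.5% lower in adults. All 131 members were called higher at both stages, and in all 131 both hira-1(-) libraries lay above both N2 libraries, as they did for 46.6% of all genes at L4 and 41.1% in adults. The rule chose the members by this difference, so nothing is read from those counts.

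Several genes lay close to the limits. On the rule's own scale the lowest ratios inside the limit at L4 were 4.12 for F53H2.1, 4.19 for K09E3.4 and 4.21 for Y2H9A.6. Just outside lay ZK430.5 at 3.99, C06E4.8 at 3.95 and T19C9.8 at 3.93. In adults F14H12.3 at 4.07, Y2H9A.6 at 4.08 and F44F1.4 at 4.15 were just inside, and C29A12.2 at 3.93, D1005.t1 at 3.91 and R11E3.2 at 3.90 just outside. For the minimum level, again in the rule's CPM on library totals, C44H9.7, K02E2.7 and Y39A1A.16 were the lowest members at L4, with 0.550, 0.621 and 0.642 CPM in hira-1(-), and T26H5.10 at 0.475, Y82E9BR.17 at 0.441 and Y53F4B.7 at 0.377 CPM were left out. On the same scale in adults T28C12.1, ZC190.6 and C01G10.17 were the lowest members at 0.518, 0.557 and 0.646 CPM, and F23B2.10 at 0.480 and F48F7.3 at 0.424 CPM were left out. The ratio at L4 alone kept out 299 genes and the ratio in adults alone 147, whereas the minimum levels alone kept out 4 and 2.

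Most members were low in both genotypes. Their median level was 3.22 CPM in hira-1(-) L4 animals, with a range of 0.501 to 344 CPM, against a median of 0.310 CPM in N2 L4 animals, with a range of 0 to 49.3 CPM. In adults the median was 3.61 CPM in hira-1(-), from 0.505 to 274 CPM, against 0.185 CPM in N2, from 0 to 31 CPM. Members under 1 CPM numbered 16 of 131 in hira-1(-) against 101 of 131 in N2 at L4, and 15 against 108 in adults. The members' CPM summed to 1613 and 1654 in hira-1(-) L4 libraries, against 177 and 200 in N2 L4 libraries. In adults the sums were 1723 and 1792 in hira-1(-) libraries, against 148 and 137 in N2 libraries. These are whole animals, in which fewer cells of a type and less RNA per cell cannot be told apart.

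C14C6.5, on chromosome V with a predicted protein of 167 residues, had the highest CPM of all members in both hira-1(-) groups and in N2 L4, and T19D12.4 had the highest in N2 adults. C14C6.5 was at 335 and 353 CPM in hira-1(-) L4 libraries against 44.3 and 54.3 CPM in N2 L4 libraries, and at 270 and 279 CPM in hira-1(-) adults against 21.4 and 20.99 CPM in N2 adults. The groups were far apart at both stages, with log2 fold changes of 2.80 ± 0.08 at L4 and 3.70 ± 0.09 in adults. Here and below, the value after ± is the log2 fold change divided by the square root of the edgeR test's F statistic. It only approximates a standard error and can lie under the counting error where a group has few counts. C14C6.5 led in all 4 groups by FPKM, a level per transcript length and library size taken from the deposited log2 values, with a mean of 688 FPKM in hira-1(-) L4, 89.6 FPKM in N2 L4, 515 FPKM in hira-1(-) adults and 34.4 FPKM in N2 adults. Its estimated counts were not whole numbers in 6 of 8 libraries. Among the 12 highest members this also held in 6 libraries for T19D12.4, C38D9.2, F15D4.5 and F59H6.5. It held in 7 for C50F7.5, in 8 for W03G1.4 and Y54G2A.21, and in 1 to 5 for the rest. Such estimates divide reads that match several genes among them, so part of these values may rest on that division.

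C38D9.2 (chromosome V, 493 residues) and F15D4.5 (chromosome II, 491 residues) combined a high level in the mutant with a low one in N2. C38D9.2 was at 105 and 100 CPM in hira-1(-) L4 libraries against 1.73 and 1.51 CPM in N2 L4 libraries. In adults it was at 161 and 158 CPM in hira-1(-) against 0.543 and 0.610 CPM in N2, a log2 fold change of 8.10. That value rests on 30.4 estimated counts over both N2 adult libraries. F15D4.5 was at 147 and 151 CPM in hira-1(-) L4 against 1.33 and 1.91 CPM in N2 L4, and at 113 and 115 CPM in hira-1(-) adults against 0.919 and 0.969 CPM in N2 adults. Per transcript length these were among the 5 highest members in hira-1(-) at both stages, C38D9.2 at 62.4 FPKM at L4 and 91.1 FPKM in adults and F15D4.5 at 100.3 FPKM at L4 and 72.0 FPKM in adults.

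T19D12.4 (chromosome II, 1028 residues) had one of the smallest ratios among the abundant members. It was at 145 and 167 CPM in hira-1(-) L4 libraries against 26.5 and 33.7 CPM in N2 L4 libraries. In adults it was at 131 and 134 CPM in hira-1(-) against 32.8 and 29.2 CPM in N2. It overlaps genes on both strands in the annotation, and the strand setting of the counting is unknown here, so its reads and those of its partners may be mixed. Y54G2A.21, a pseudogene on chromosome IV, was at 24.4 and 24.2 CPM in hira-1(-) L4 against 6.74 and 5.62 CPM in N2 L4, and at 22.1 and 23.2 CPM in hira-1(-) adults against 6.14 and 5.17 CPM in N2 adults. Both were expressed in N2 at levels above those of most members.

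W03G1.4, W03G1.3 and F59H6.5 have no entry under these names in the annotation, as have 5 other members (F33H12.6, T06E6.14, Y69A2AR.13, ZC178.1 and ZK250.10), so their type and chromosome are not given. They were counted as having only a sequence name, but whether they were renamed or merged is not known here. W03G1.4 was at 49.8 and 50.6 CPM in hira-1(-) L4 libraries against 7.38 and 6.51 CPM in N2 L4 libraries, and at 90.4 and 93.1 CPM in hira-1(-) adults against 13.2 and 10.7 CPM in N2 adults. W03G1.3, with a consecutive sequence name, was at 31.2 and 27.8 CPM in hira-1(-) L4 against 5.62 and 5.37 CPM in N2 L4, and at 29 and 31.1 CPM in hira-1(-) adults against 8.48 and 6.82 CPM in N2 adults. F59H6.5 was at 15.7 and 20.3 CPM in hira-1(-) L4 against 0.252 and 0.404 CPM in N2 L4, and at 23.1 and 28.5 CPM in hira-1(-) adults against 0 and 0.215 CPM in N2 adults. Each of the 3 had all hira-1(-) libraries above all N2 libraries, but the rule chose members by this difference, so nothing is read from it.

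B0024.4 (chromosome V, 390 residues) was at 38.6 and 44.9 CPM in hira-1(-) L4 libraries against 4.79 and 7.498 CPM in N2 L4 libraries, and at 41.2 and 42.6 CPM in hira-1(-) adults against 3.59 and 3.55 CPM in N2 adults. Y37H2A.14 (chromosome V, 181 residues) was at 45.3 and 50.3 CPM in hira-1(-) L4 against 5.08 and 4.96 CPM in N2 L4, and at 31.1 and 34.7 CPM in hira-1(-) adults against 2.30 and 2.58 CPM in N2 adults. Between adults and L4, B0024.4 had a log2 change of 0.01 ± 0.13 in hira-1(-) (adjusted p 0.97, edgeR) and fell by 0.78 in N2 (adjusted p 0.0050), and Y37H2A.14 fell by 0.54 in hira-1(-) (adjusted p 7.2e-05) and by 1.03 in N2 (adjusted p 1.6e-05).

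**Figure D1:**
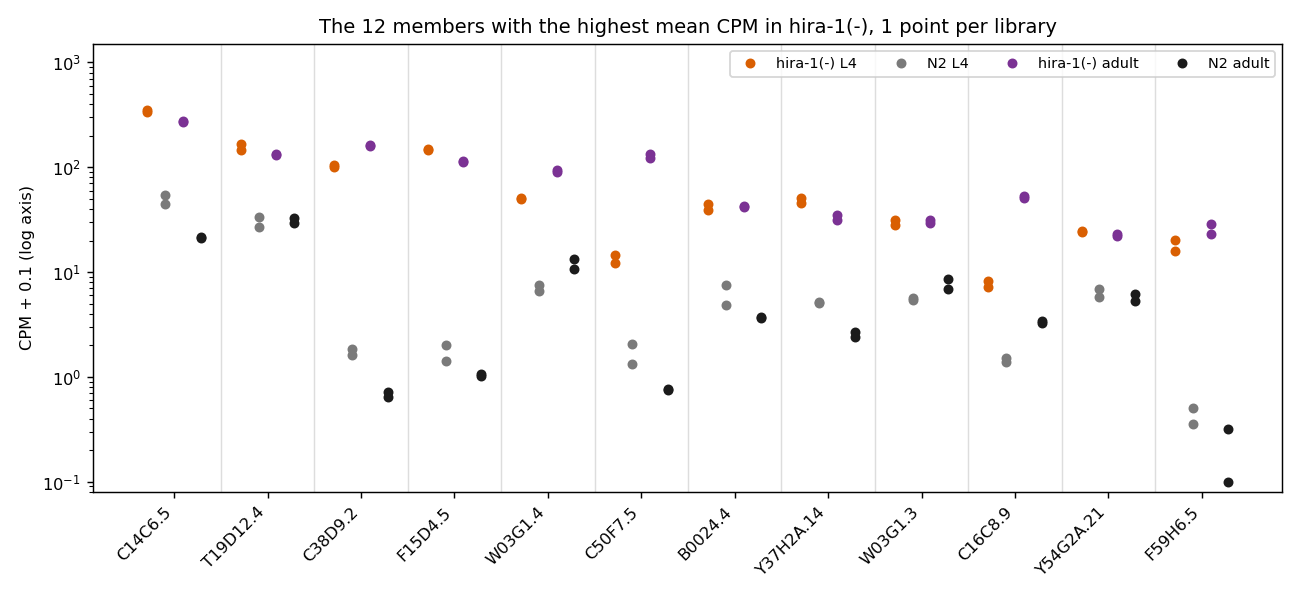
CPM plus 0.1 on a log axis for the 12 members with the highest mean CPM over the hira-1(-) libraries, 1 point per library, with hira-1(-) to the left of N2 at each stage. In every gene the hira-1(-) points lie above the N2 points of the same stage, which the rule required of the means. C50F7.5 and C16C8.9 have the widest gaps between hira-1(-) adults and hira-1(-) L4, at 122 and 133 against 12.2 and 14.5 CPM for C50F7.5.

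Many members had next to no RNA in N2. Over both libraries of a group, 10 members had no N2 count at L4 and 12 had none in adults, and 17 more at L4 and 29 more in adults had 1 to 3 N2 counts. With 3 counts per library taken as the limit that a count of 0 allows, the members at 0 were at least 7.74- to 32.6-fold higher in hira-1(-) at L4 and at least 6.61- to 57.4-fold higher in adults. The 104 members with more than 3 N2 counts at L4 had ratios of 3.93- to 104-fold with a median of 7.93-fold, and the 90 such members in adults 3.63- to 274-fold with a median of 11.8-fold, where the lowest lie under 4 because TMM scaling differs from library totals. The fitted median over all 131 members was a log2 fold change of 3.47 at L4 and 4.0 in adults. It was 3.44 and 3.90 with the groups at 0 set to their bound, beside medians of 0.10 and 0.03 over all genes tested. Scaling by library totals moved the medians of all genes to 0.24 at both stages and those of the members to 3.60 and 4.21. These limits and the intervals that follow cover counting error only.

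T05B4.8 and F33H12.6 had no N2 count at either stage. T05B4.8 was at 3.15 and 3.30 CPM in hira-1(-) L4 libraries and at 1.86 and 2.34 CPM in hira-1(-) adult libraries, at least 32.6-fold and 20.8-fold higher than in N2. F33H12.6 was at 4.64 and 1.75 CPM in hira-1(-) L4 and at 4.04 and 3.73 CPM in hira-1(-) adults, at least 32-fold and 38.6-fold higher. Its L4 libraries differed from each other more than those of T05B4.8. W08E12.2 (chromosome IV, 120 residues) was at 5.71 and 5.84 CPM in hira-1(-) adults with no count in N2 adults, at least 57.4-fold higher, and at 6.80 and 6.47 CPM in hira-1(-) L4 against 0.252 and 0.184 CPM in N2 L4. F35E8.10 (chromosome V, 249 residues) was at 2.13 and 2.28 CPM in hira-1(-) L4 with no count in N2 L4, at least 22.3-fold higher. In adults it was at 2.15 and 2.11 CPM in hira-1(-) against 0.0835 and 0.0359 CPM in N2. Counts were not whole numbers in 4 libraries for T05B4.8 and F33H12.6, in 6 for W08E12.2 and in 5 for F35E8.10. For T05B4.8, F33H12.6 and W08E12.2 these were all the libraries with a count above 0. The part of shared reads in these values and bounds was not tested.

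ZK218.7 (chromosome V, 259 residues) and W07B8.4 (chromosome V, 335 residues) had a clear level in the mutant beside a few N2 reads. ZK218.7 was at 12.7 and 11.9 CPM in hira-1(-) L4 libraries against 0.0360 and 0 CPM in N2 L4 libraries, a ratio of 743 with an exact 95% binomial interval of 133 to 29370. In adults it was at 9.53 and 9.57 CPM in hira-1(-) against 0.0418 and 0.0718 CPM in N2, a ratio of 190 (64.8 to 926). W07B8.4 was at 21.4 and 24.01 CPM in hira-1(-) adults against 0.0418 and 0 CPM in N2 adults, a ratio of 1356 (243 to 53588), and at 9.0 and 8.06 CPM in hira-1(-) L4 against 0.288 and 0.368 CPM in N2 L4. The width of these intervals comes from the 1 to 3 reads in N2, and the lower ends are the firmer values. C08E3.1 (chromosome II, 78 residues) was uneven between hira-1(-) adult libraries, at 1.60 and 4.64 CPM with no count in N2 adults, and even at L4, at 3.42 and 3.67 CPM in hira-1(-) against 0.180 and 0.221 CPM in N2. Its counts were not whole numbers in 6 libraries, and the part of shared reads in its values was not tested.

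**Figure D2:**
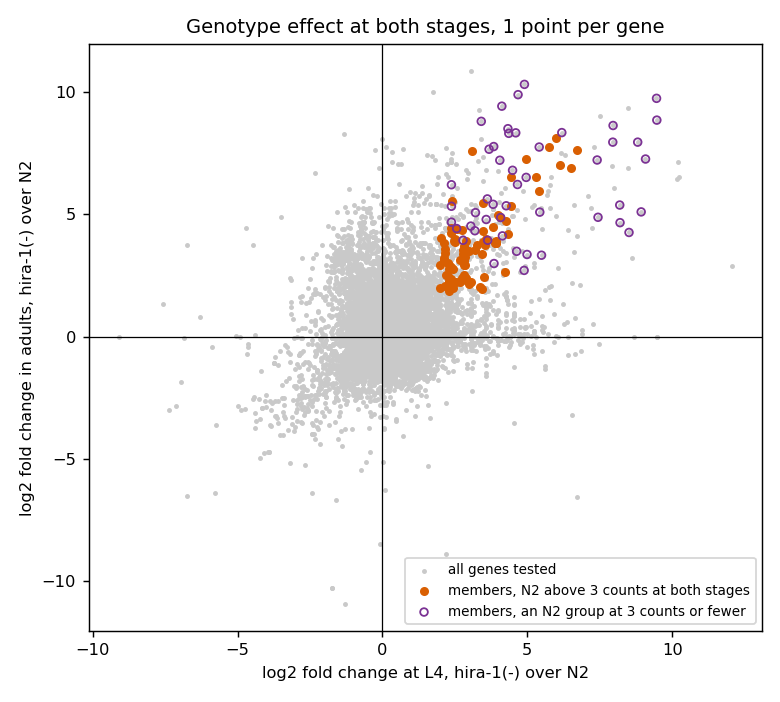
Log2 fold change of hira-1(-) over N2 at L4 (horizontal) and in adults (vertical), 1 point per gene, for all 16770 genes tested (grey) and the 131 members. Open circles are the 48 members with 3 counts or fewer in at least 1 N2 group, whose fitted values depend on the small count added before taking logs and are neither estimates nor bounds of the fold. The members fill the upper right corner because the rule placed them there, and the filled points show how far they spread within it.

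More members lay on chromosome V than on any other. Of the 123 with an annotation entry, 63 (51.2%) lie on chromosome V, beside 21.7% of the 7073 tested genes that carry only a sequence name. Chromosome II held 28 members (22.8%, beside 17.9%) and chromosome IV 15 (12.2%, beside 17.2%). Chromosomes I and III held 6 each and X held 5, which is 4.88%, 4.88% and 4.07% of members beside 15.3%, 13.8% and 14.04% of tested sequence-name genes. As a share of the tested sequence-name genes on each chromosome, members made up 4.11% on V and 2.21% on II, against 1.24% on IV and 0.504% to 0.613% on I, III and X. Of the 114 named genes that met the same limits, 28.9% lie on V and 30.7% on II, beside 20.8% and 17.7% of all genes tested. The annotation types 114 members as protein coding and 9 as pseudogenes (7.32%), close to the 7.14% of pseudogenes among tested sequence-name genes.

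Some members stood side by side. For 30 of 123 members (24.4%) the next gene on 1 side or the other in the annotation's gene order was another member, beside 114 of 6992 tested sequence-name genes (1.63%) and 1.04% of all genes tested. Members with a neighbour among all genes meeting the limits, named ones included, numbered 33 (26.8%, beside 2.23%). The longest runs were T05B4.8, T05B4.9 and T05B4.10, followed by the named gene phat-5, and C01G10.5, C01G10.4 and C01G10.17, both on chromosome V. The other runs were pairs. One member each stood next to math-38, sri-36 and idpp-12. F07B7.1 and F07B7.2 had the same values as W09B7.1 and W09B7.2 in every library, so these 4 rows hold 2 measurements.

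**Figure D3:**
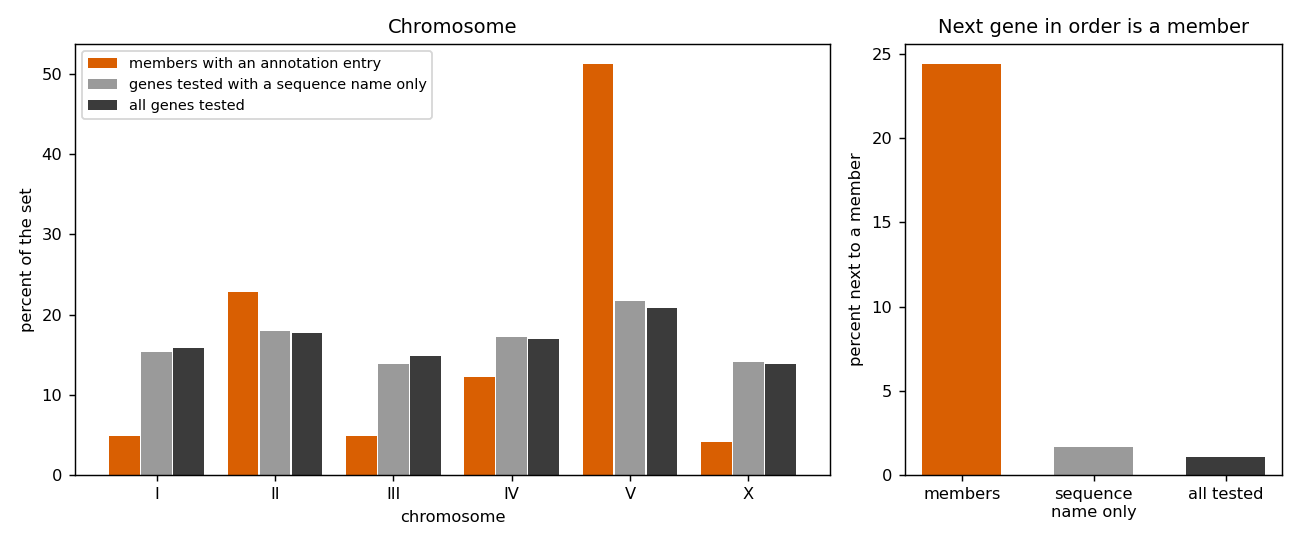
Left, percent of each set on each chromosome. Right, percent of each set whose next gene on either side is a member. Bars are the members, the tested genes with a sequence name only and all tested genes. The members' bar reaches 51.2% on chromosome V, and 24.4% of members adjoin another member against 1.63% of tested sequence-name genes.

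The 3 T05B4 members each encode a predicted protein of 250 residues. T05B4.9 was at 3.11 and 2.81 CPM in hira-1(-) L4 libraries against 0.144 and 0.0368 CPM in N2 L4 libraries, and at 2.00 and 2.34 CPM in hira-1(-) adults against 0.0418 and 0 CPM in N2 adults. T05B4.10 was at 1.25 and 1.39 CPM in hira-1(-) L4 with no count in N2 L4, at least 13.3-fold higher, and at 1.04 and 0.942 CPM in hira-1(-) adults against 0 and 0.0359 CPM in N2 adults. In the mutant T05B4.10 was the lowest of the 3 at both stages by CPM. Next to the run, phat-5 had log2 fold changes of 4.32 at L4 and 4.38 in adults. The genes directly beyond both ends of the run were too low to be tested, and of the 3 other tested genes in the window clc-18 stood at 0.82 at L4 and -1.02 in adults, phat-4 at -1.42 and -0.30, and nhr-57 at 1.02 and 0.99.

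The C01G10 members are predicted to encode 72 to 75 residues. In hira-1(-) L4 their mean levels lay under the members' lower quartile of 1.45 CPM. In hira-1(-) adults C01G10.17 lay under the lower quartile of 1.53 CPM, and C01G10.5 and C01G10.4 lay above it. Per transcript length C01G10.5 and C01G10.4 lay above the members' hira-1(-) medians of 4.61 FPKM at L4 and 4.56 FPKM in adults, and C01G10.17 lay under both. C01G10.5 was at 0.981 and 1.42 CPM in hira-1(-) L4 libraries against 0.0720 and 0.147 CPM in N2 L4 libraries, and at 2.37 and 1.66 CPM in hira-1(-) adults with no count in N2 adults, at least 20-fold higher. C01G10.4 was at 0.812 and 1.35 CPM in hira-1(-) L4 against 0.0360 and 0.110 CPM in N2 L4, and at 1.82 and 1.85 CPM in hira-1(-) adults against 0.0418 and 0.0359 CPM in N2 adults. C01G10.17 was at 0.778 and 0.661 CPM in hira-1(-) L4 against 0 and 0.0368 CPM in N2 L4, and at 0.853 and 0.415 CPM in hira-1(-) adults against 0.0835 and 0.0359 CPM in N2 adults. At this depth C01G10.17 rests on 43.6 estimated counts over both hira-1(-) L4 libraries and 1 over both N2 L4 libraries.

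The ZK218 genes on chromosome V held 4 members, ZK218.3, ZK218.5, ZK218.7 and ZK218.11, with the genes between them too low to be tested except where 2 members adjoin. ZK218.5 had log2 fold changes of 6.70 at L4 and 7.64 in adults. ZK218.3 had no N2 count at either stage and was at least 11.3-fold higher in hira-1(-) at L4 and 11.1-fold in adults. ZK218.11 had ratios of 309 (85.1 to 2554) at L4 and 565 (101 to 22379) in adults. On chromosome II, C08E3.13 and C08E3.1 lie a few genes from fbxa-158 and fbxa-166, F-box genes that met the same limits. These fbxa genes had log2 fold changes of 5.78 and 2.62 at L4 and 5.26 and 3.02 in adults. Tested genes with C08E3 sequence names beyond the displayed genes also had high fitted log2 fold changes. C08E3.4 stood at 6.595 at L4 and 3.451 in adults, C08E3.5 at 3.225 and 4.845, and C08E3.6 at 5.676 and 5.786. C08E3.7 stood at 7.501 and 8.998, and C08E3.8 at 5.777 and 6.209. These 2 loci were chosen for display after their values were seen.

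**Figure D4:**
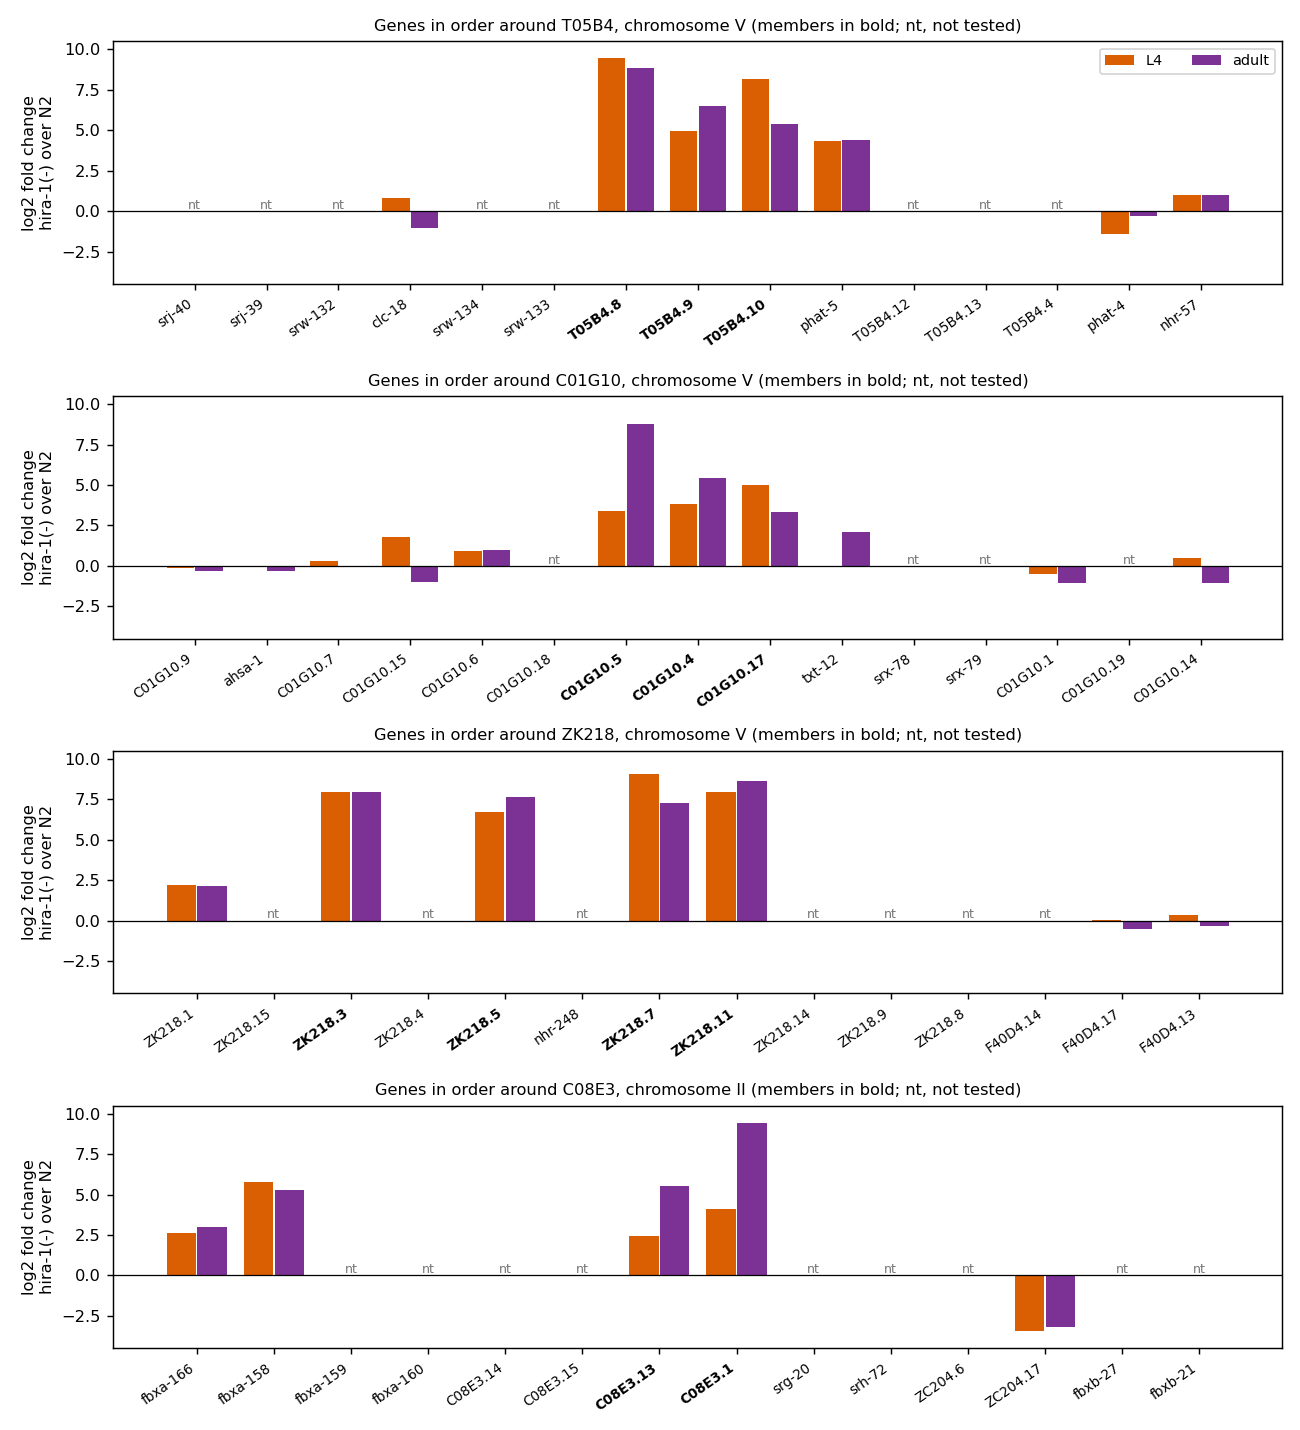
Log2 fold change of hira-1(-) over N2 at L4 and in adults for genes in annotation order around 4 loci, with 6 genes on each side, members in bold and genes too low to be tested marked nt. Bars of members with no N2 count depend on the small count added by the fit. The T05B4 and C01G10 members adjoin one another, ZK218.3 and ZK218.5 stand singly, and fbxa-158 near the C08E3 members lies at 5.78 at L4, above both of them.

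Values of other pairs follow. T08E11.1 (chromosome II, 649 residues) was at 6.70 and 5.85 CPM in hira-1(-) L4 libraries against 0.108 and 0.184 CPM in N2 L4 libraries, and its neighbour T08E11.8, a pseudogene, was at 1.93 and 1.59 CPM in hira-1(-) against the same 0.108 and 0.184 CPM in N2. In adults T08E11.1 was at 4.896 and 5.28 CPM in hira-1(-) against 0.167 and 0 CPM in N2, and T08E11.8 at 1.82 and 1.40 CPM in hira-1(-) against 0.125 and 0.108 CPM in N2. Y71G12B.2 (chromosome I) was at 4.94 and 4.59 CPM in hira-1(-) L4 against 0.576 and 1.29 CPM in N2 L4, and Y71G12B.32 next to it at 2.23 and 2.31 CPM in hira-1(-) against 0.288 and 0.368 CPM in N2. Both Y71G12B genes overlap a gene on the opposite strand. F19B10.4 and F19B10.13 (chromosome II) were at 3.15 and 2.78 CPM and at 2.74 and 3.24 CPM in hira-1(-) L4, against 0.468 and 0.845 CPM and 0.540 and 0.257 CPM in N2 L4. In adults F19B10.4 was at 1.34 and 1.51 CPM in hira-1(-) against 0.0418 and 0.179 CPM in N2, and F19B10.13 at 1.89 and 1.77 CPM in hira-1(-) against 0.459 and 0.251 CPM in N2.

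The members of the ZC239 pair on chromosome II differed in their course. ZC239.22 (142 residues) was at 11.98 and 12.8 CPM in hira-1(-) adults and at 2.33 and 2.28 CPM in hira-1(-) L4 libraries, while ZC239.14 (223 residues) was at 3.67 and 3.77 CPM in hira-1(-) adults and at 3.96 and 4.46 CPM in hira-1(-) L4 libraries. In N2, ZC239.22 was at 1.17 and 0.502 CPM in adults and at 0.396 and 0.221 CPM at L4, and ZC239.14 at 0.960 and 0.718 CPM in adults and at 0.504 and 0.551 CPM at L4. The change between stages passed the test for ZC239.22 in hira-1(-) (log2 fold change 2.42 ± 0.20, adjusted p 1.3e-07, edgeR) and in N2 (1.38 ± 0.45, adjusted p 0.011). The call in N2 was lost without N2 L4 replicate 2 (adjusted p 0.081) or N2 adult replicate 1 (adjusted p 0.26).

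The annotation also gives 206 genes that lie next to members but did not themselves meet the limits. Of these neighbours 136 were tested, and 64 (47.1%) were called higher and 24 (17.6%) lower in hira-1(-) at L4, beside 35.5% and 22.6% of all genes. In adults 63 (46.3%) were called higher and 27 (19.9%) lower, beside 28.6% and 26.5%. These shares rest on TMM scaling. With library totals the adult median of all genes was 0.24 in place of 0.03 and more genes were called higher. No neighbour shares are given on that scale. Their median log2 fold change was 0.46 at L4 and 0.40 in adults, under the members' 3.47 and 4.0. Of the 125 neighbours that overlap no member in the annotation, 47.2% were called higher at L4 and 48.8% in adults. On chromosome V alone the shares were 49.1% and 45.6% of 57 neighbours, beside 35.8% and 32.1% of the 3420 tested genes there.

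Predicted protein lengths were compared as a description. The 114 protein-coding members had a median of 250 residues (quartiles 153.2 and 350.8), against 287 for tested sequence-name genes and 354 for all tested protein-coding genes. Proteins under 100 residues made up 19 of 114 members (16.7%), against 7.48% of tested sequence-name genes. Members had a median of 4 exons, against 5 and 6. Overlap with a gene on the opposite strand was annotated for 15 of 123 members (12.2%), against 27.3% of tested sequence-name genes, and overlap on the same strand for 3 (2.44%), against 8.14%. Counts that were not whole numbers made up 40.6% of the members' 965 values above 0, against 45.6% for tested sequence-name genes and 52.8% for all genes, and 32 members (24.4%) had whole counts in every library, against 21.96% of tested sequence-name genes and 17.9% of all genes.

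The rule did not use the difference between stages, which was tested within each genotype, although it used the same libraries. In hira-1(-), 39 members (29.8%) were higher and 28 (21.4%) lower in adults than at L4, beside 36% and 38.4% of all genes tested. In N2, 23 members (17.6%) were higher and 41 (31.3%) lower, beside 38.2% and 43.4% of all genes. The members' median log2 fold change between stages was 0.01 in hira-1(-) and -0.61 in N2, beside -0.08 and -0.15 over all genes, and with library totals in place of TMM the median in hira-1(-) turned to -0.09. Without hira-1(-) adult replicate 1, members called lower in hira-1(-) numbered 17 in place of 28, and without N2 L4 replicate 1, members called higher in N2 numbered 15 in place of 23. Members were called in the same direction in both genotypes in 17 cases (higher) and 21 cases (lower), 8 were called higher in hira-1(-) and lower in N2, and 46 were called in neither. The low N2 levels limit these counts and medians, and among the 83 members with more than 3 N2 counts at both stages the calls were 26 higher and 23 lower in hira-1(-) against 17 and 29 in N2. The median log2 fold change between stages of these 83 was 0.03 in hira-1(-) and -0.32 in N2.

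C50F7.5 (chromosome IV, 306 residues) had the largest rise between stages among members in hira-1(-). It was at 122 and 133 CPM in hira-1(-) adults and at 12.2 and 14.5 CPM in hira-1(-) L4 libraries (log2 fold change 3.25 ± 0.10, adjusted p 4.3e-11, edgeR). In N2 it moved the other way, at 0.668 and 0.646 CPM in adults and at 1.95 and 1.21 CPM at L4 (-1.26 ± 0.30, adjusted p 0.0016). The genotype difference was therefore 3.08 at L4 and 7.59 in adults on the log2 scale. The adult value rests on 33.8 estimated counts over both N2 adult libraries. Per transcript length it was the second highest member in hira-1(-) adults, at 129.7 FPKM.

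C16C8.9 (chromosome II, 157 residues) rose in both genotypes. It was at 52.6 and 50.8 CPM in hira-1(-) adults and at 7.17 and 8.13 CPM in hira-1(-) L4 (2.76 ± 0.10, adjusted p 3.7e-11, edgeR), and at 3.13 and 3.30 CPM in N2 adults and 1.41 and 1.29 CPM in N2 L4 (1.26 ± 0.17, adjusted p 1.0e-05). K04F1.9 (chromosome V, 139 residues) also rose in both. It was at 12.4 and 13.6 CPM in hira-1(-) adults and 3.93 and 4.096 CPM in hira-1(-) L4 (1.69 ± 0.13, adjusted p 6.7e-08), and at 2.42 and 2.30 CPM in N2 adults and 0.324 and 0.368 CPM in N2 L4 (2.75 ± 0.25, adjusted p 2.6e-07). The rise was thus larger in hira-1(-) for C16C8.9 and larger in N2 for K04F1.9, as the genotype-by-stage test below gives. W07B8.4 rose by 1.41 ± 0.13 in hira-1(-) (adjusted p 2.2e-07), with too few N2 adult reads for a level there.

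C25H3.10 (chromosome II, 295 residues) and F14H12.3 (chromosome X, 257 residues) rose in both genotypes. C25H3.10 was at 16.8 and 16.3 CPM in hira-1(-) adults and 7.44 and 7.66 CPM in hira-1(-) L4, and at 3.97 and 3.91 CPM in N2 adults and 1.84 and 1.51 CPM in N2 L4. Its log2 changes were 1.13 ± 0.11 in hira-1(-) and 1.23 ± 0.16 in N2, with a difference of -0.10 ± 0.20 (adjusted p 0.69, edgeR). F14H12.3 was at 14.98 and 16.1 CPM in hira-1(-) adults and 6.06 and 6.41 CPM in hira-1(-) L4, and at 5.35 and 3.30 CPM in N2 adults and 1.12 and 1.40 CPM in N2 L4, with log2 changes of 1.32 ± 0.17 in hira-1(-) and 1.77 ± 0.24 in N2 and a difference of -0.45 ± 0.30 (adjusted p 0.23). Neither difference passed the test, which does not show the changes to be equal. F14H12.3 overlaps a gene on the opposite strand.

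B0205.13 (chromosome I, 99 residues) fell most among members in hira-1(-). It was at 3.45 and 3.58 CPM in hira-1(-) adults and 22.8 and 20.3 CPM in hira-1(-) L4 (-2.61 ± 0.15, adjusted p 2.3e-09, edgeR), and at 0.209 and 0.251 CPM in N2 adults and 3.31 and 4.48 CPM in N2 L4 (-4.05 ± 0.29, adjusted p 1.9e-08). C08E8.4 (chromosome V, 209 residues) fell in the same way, to 8.16 and 9.72 CPM in hira-1(-) adults against 28.8 and 30.02 CPM in hira-1(-) L4, and to 0.501 and 0.574 CPM in N2 adults against 7.46 and 7.13 CPM in N2 L4. Y39G8B.7 (chromosome II, 179 residues) was at 9.61 and 10.8 CPM in hira-1(-) adults and 32.9 and 29.2 CPM in hira-1(-) L4 (-1.60 ± 0.12, adjusted p 3.4e-08), and at 0.501 and 0.287 CPM in N2 adults and 1.77 and 1.43 CPM in N2 L4. F08G2.5 (chromosome II, 178 residues) was at 8.31 and 8.78 CPM in hira-1(-) adults and 19.8 and 19.4 CPM in hira-1(-) L4 (-1.20 ± 0.11), and at 0.710 and 0.502 CPM in N2 adults and 1.41 and 1.21 CPM in N2 L4 (-1.12 ± 0.26). These genes fell in both genotypes, each call with an adjusted p of at most 0.0012.

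**Figure D5:**
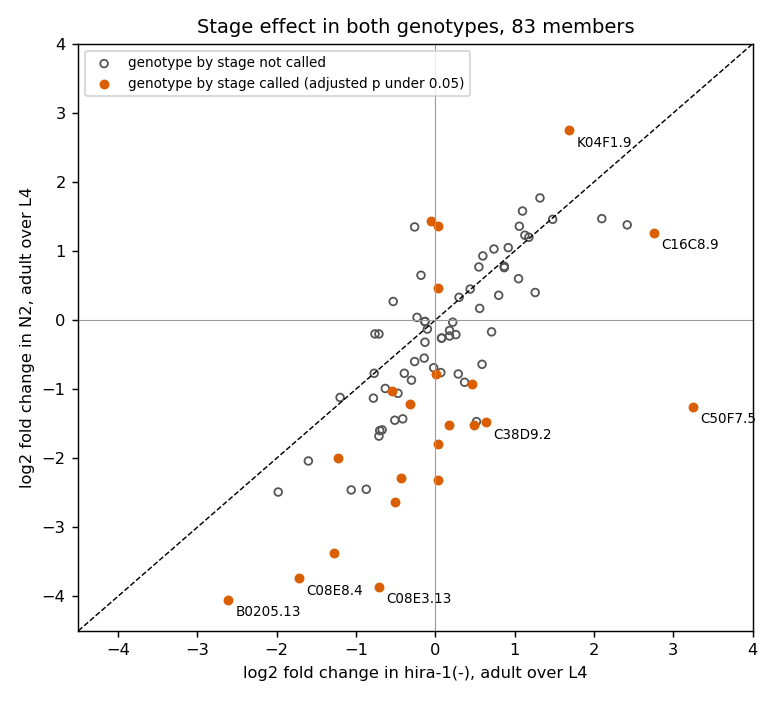
Log2 fold change of adults over L4 in hira-1(-) (horizontal) and in N2 (vertical) for the 83 members with more than 3 counts over the N2 libraries at each stage, 1 point per gene. Filled points passed the genotype-by-stage test, and the dashed line marks equal changes. Points below the line, such as C50F7.5 and C08E3.13, had a larger genotype difference in adults than at L4, and K04F1.9 above it a smaller one.

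The genotype-by-stage test asks whether the genotype difference itself changed between the stages. The rule bounded both differences from below but not their difference. Of the 131 members, 24 (18.3%) had a larger log2 fold change of hira-1(-) over N2 in adults than at L4 and 5 (3.82%) a smaller one, beside 20.7% and 29.7% of all genes tested. The median difference was 0.51 over the members and -0.07 over all genes. Among the 83 members with more than 3 N2 counts at both stages, 18 were larger and 4 smaller, with a median of 0.43. The members' share with a larger difference was thus near that of all genes and the share with a smaller one under it, and neither gap was tested. The count of 5 was lower whichever library was left out, being 1 without N2 L4 replicate 1, 3 without hira-1(-) L4 replicate 1 or either hira-1(-) adult replicate, and 4 without any of the other 4 libraries.

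Among the larger ones, C50F7.5 had a difference of 4.52 ± 0.31 between adults and L4 (adjusted p 2.5e-07, edgeR). C08E3.13 (chromosome II, 78 residues) had 3.14 ± 0.38 (adjusted p 2.0e-05), being at 11.2 and 12.8 CPM in hira-1(-) adults against 0.334 and 0.179 CPM in N2 adults, and at 18.4 and 20.9 CPM in hira-1(-) L4 against 3.03 and 4.37 CPM in N2 L4. Its counts were not whole numbers in any of the 8 libraries. C38D9.2 had 2.11 ± 0.20 (adjusted p 2.7e-06), with a rise in hira-1(-) of 0.64 ± 0.05 (adjusted p 6.3e-08) and a fall in N2 of -1.48 ± 0.20 (adjusted p 1.3e-05). C08E8.4 had 2.03 ± 0.24 (adjusted p 1.7e-05), as it fell by 1.72 in hira-1(-) and by 3.74 in N2. C16C8.9 had 1.5 ± 0.20 (adjusted p 4.9e-05). C14C6.5 had 0.89 ± 0.11 (adjusted p 5.9e-05), as it fell less in hira-1(-) (-0.32 ± 0.07, adjusted p 0.0016) than in N2 (-1.22 ± 0.09, adjusted p 7.7e-08). F15D4.5 missed the threshold at 0.39 ± 0.21 (adjusted p 0.19).

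The members with a smaller difference in adults rested on N2 values that were higher in adults than at L4. F44F1.4 (chromosome I, 549 residues) was level in hira-1(-), at 4.6 CPM in both adult libraries and 4.94 and 4.62 CPM at L4, and was at 0.960 and 1.40 CPM in N2 adults and 0.468 and 0.404 CPM in N2 L4, a difference of -1.5 ± 0.35 (adjusted p 0.0033, edgeR). K04F1.9 had -1.06 ± 0.31 (adjusted p 0.011), and without N2 L4 replicate 1 it had -0.89 (adjusted p 0.095). B0507.8 (chromosome V, 396 residues) was at 3.41 and 3.47 CPM in hira-1(-) adults against 0.668 and 1.01 CPM in N2 adults, and at 4.03 and 2.74 CPM in hira-1(-) L4 against 0.252 and 0.404 CPM in N2 L4. Its difference was -1.33 ± 0.48 (adjusted p 0.033), and the call was lost when any of 5 single libraries was left out (adjusted p 0.057 to 0.19). W03G1.3 had a difference of -0.45 ± 0.17 (adjusted p 0.040), and the call was lost when any of 6 single libraries was left out (adjusted p 0.052 to 0.28) and with library totals (adjusted p 0.068). F44F1.4 kept its call without any single library. The fifth was C08E8.3, whose fitted -4.25 (adjusted p 0.037) has no N2 count at L4 behind it and is not an estimate of size, and whose call was lost when any of 5 single libraries was left out (adjusted p 0.056 to 0.12). C08E8.3 (chromosome V, 78 residues) was at 2.52 and 3.58 CPM in hira-1(-) adults against 0.167 and 0.144 CPM in N2 adults, and at 1.52 and 1.78 CPM in hira-1(-) L4 with no count in N2 L4.

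Gene families with names were compared as lists chosen with earlier results of these data known. Their counts stand beside all-gene shares of 35.5% higher and 22.6% lower at L4 and 28.6% and 26.5% in adults. All these shares rest on TMM scaling, and none are given for library totals, with which more genes were called higher in adults. The pals genes, many of which are induced in the C. elegans response to intracellular infection, had 18 of 30 tested genes (60%) called higher in hira-1(-) at L4 (median log2 fold change 1.22) and 22 (73.3%) higher and 1 lower in adults (1.95), beside all-gene medians of 0.10 and 0.03. The fbxa F-box genes had 81 of 168 (48.2%) higher and 15 lower at L4 (0.50), and 64 (38.1%) higher and 11 lower in adults (0.42). Of 72 fbxb F-box genes 13 (18.1%) were called higher at L4, a share under that of all genes although the median was 1.27, and 31 (43.1%) in adults (1.17). Of the 72, 59 had a count of 0 in at least 1 library. Together they summed to 14.65 to 15.09 CPM in hira-1(-) L4 against 6.175 to 7.239 CPM in N2 L4, so the L4 median rests on low counts. The math and bath genes, which encode MATH domains, had 34 of 76 (44.7%) higher and 5 lower at L4 (0.48), and 35 (46.1%) higher and 8 lower in adults (0.39). The skr genes, which encode Skp1-like parts of ubiquitin ligases, had 10 of 20 (50%) higher and 1 lower at L4 (0.46), and 10 higher and 3 lower in adults (0.52). The C-type lectin genes were split, with 49 of 168 (29.2%) higher and 55 (32.7%) lower at L4 (-0.08, or 0.04 with library totals) and 66 (39.3%) higher and 62 (36.9%) lower in adults (0.12). cul-6, a cullin gene, was higher at both stages (0.97, adjusted p 9.2e-05, and 0.76, adjusted p 0.0011, edgeR).

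Among the 114 named genes that met the same limits, 17 were his, 13 fbxa, 9 clec and 7 pals genes. The counts table has 221 fbxa, 264 clec and 38 pals rows, and 246 of all its 45461 rows met the limits. The number of his rows was not counted, so the order of these counts is no ranking of families. Examples with the smallest adjusted p were pals-6 (log2 fold change 4.01 at L4 and 5.51 in adults), fbxa-158 (5.78 and 5.26) and clec-52 (2.03 and 2.59). None of the members with an annotation entry carries such a family name, and the annotation used here does not say whether the members' proteins belong to these families.

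Markers of tissues moved with genotype in the same libraries, and their part in the members' values was not tested. The 14 oocyte markers summed to 1791 to 1819 CPM in hira-1(-) L4 against 448 to 571 CPM in N2 L4, and to 9715 to 10041 CPM in hira-1(-) adults against 9787 to 10207 CPM in N2 adults, with all 14 called higher at L4 and 2 higher and 3 lower in adults (median -0.03, or 0.17 with library totals). The msp genes, which encode the major sperm protein, summed to 2465 to 2505 CPM in hira-1(-) L4 against 1125 to 1290 CPM in N2 L4, and to 522 to 561 CPM in hira-1(-) adults against 1817 to 2003 CPM in N2 adults, with 29 of 32 (90.6%) higher and 2 lower at L4 and 30 of 32 (93.8%) lower in adults, beside the all-gene shares given above. Cuticle collagen genes summed to 28285 to 28859 CPM in hira-1(-) L4 against 46293 to 53436 CPM in N2 L4, and to 32117 to 32663 CPM in hira-1(-) adults against 57937 to 63846 CPM in N2 adults. Of 141 tested, 26 were higher and 70 lower at L4 (median -0.70) and 84 higher and 33 lower in adults (median 1.36), so that the sum and the median differ in direction in adults. Of the 8 muscle markers 7 were lower at L4 (6767 to 7705 CPM in hira-1(-) against 11855 to 15997 CPM in N2), and 3 were higher and 2 lower in adults. The 8 intestine markers had 2 higher and 6 lower at L4 (5893 to 6066 CPM in hira-1(-) against 6485 to 6915 CPM in N2) and 3 higher and 1 lower in adults (9468 to 10757 CPM in hira-1(-) against 12222 to 14491 CPM in N2). The 8 neuron markers had 1 higher and 2 lower at L4 (335 to 341 CPM in hira-1(-) against 348 to 355 CPM in N2, median -0.01, or 0.13 with library totals) and 3 higher and 1 lower in adults. No oocyte, muscle, neuron or intestine marker was at 0 in any library.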

How the data were processed

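The submitters' processing notes list the ce10 build, RSEM 1.2.15, Bowtie 1.0.1 and SAMtools 0.1.19. The authors deposited estimated counts per gene, which need not be whole, and FPKM on a log2 scale. No source used here gives the strand setting. Of the deposited columns 8 match 1 sample's labels each (1 despite a digit in place of a letter), and 10 match none and were not used. Members and lists were chosen with earlier results of these data known.

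After rounding, counts went into edgeR 4.0.16 under R 4.3.3 (TMM, minimum count of 10 and 15 in total, robust quasi-likelihood fit of 4 group means, 4 residual degrees of freedom, common biological coefficient of variation 6.26%, Benjamini-Hochberg over 16770 genes, threshold 0.05), after a check on simulated counts. Adjusted p-values come from that fit, and values after ± are log2 fold changes divided by the square root of its F statistic. A count was called whole within 0.005. Names, types, chromosomes and gene order came from RefSeq's table of WBcel235. Protein lengths, exons, strand overlaps and a second check of names came from a separate annotation of the same build. That build differs from the files' own, so no coordinates are given. Members named with values were the 12 highest in hira-1(-), the 4 largest changes per stage, up to 4 per direction with the smallest adjusted p in the other contrasts, up to 16 neighbours, and those at the limits. Alternatives were RLE scaling, library totals, other filters, DESeq2 1.42.0, limma 3.58.1 on the deposited log2 values, a replicate block, only the groups compared and leaving out each library. Replicate libraries varied beyond counting noise, with a chi-square of 5.57 to 18.2 per degree of freedom. The planned protein comparisons and promoter motif searches were not made, since no such sequences were at hand.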

Additional observations from a re-analysis of the deposited data

Results flagged for a closer look

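The genotype effect differed between adults and L4, by edgeR's genotype-by-stage test, in 24 members with a larger effect in adults and 5 with a smaller one. The named ones with a larger effect, as log2 differences, were C50F7.5 at 4.52, C08E3.13 at 3.14, C38D9.2 at 2.11 and C08E8.4 at 2.03. Those with a smaller effect were F44F1.4 at -1.5, B0507.8 at -1.33, K04F1.9 at -1.06 and C08E8.3 at -4.25, the last with no N2 count at L4. Of the 24, 6 had 3 counts or fewer in an N2 group, and of the 5, 1 had.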

How the results depend on the processing

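Stage and genotype-by-stage counts of members stayed within 1.5 times the reported ones under the alternatives run, except as follows. Leaving out each library gave 17 to 29 members lower in hira-1(-) adults than in L4 (28 reported), 15 to 21 higher in N2 adults than in L4 (23), and 1 to 4 with a smaller genotype effect in adults (5), which was 3 with DESeq2 and 10 with limma on log2 FPKM. The causes were not tested. Of all genes, 4790 were called higher and 4445 lower in hira-1(-) adults. Library totals gave 7198 and 2320, and limma 2265 lower. The rule gave 66 members with 0.5 CPM added and 50 with an 8-fold limit, in place of 131, all of them members. It gave 116 with TMM-scaled library sizes (all members), 158 with linear FPKM (126 members), and 129 to 135 without single libraries (124 to 129 members). C08E8.3 reversed to 0.17 for genotype by stage with limma (adjusted p 0.55), as low values shrink on that scale. Replicate numbers did not pair the samples (correlations of deviations -0.00205 to 0.0666), and with a replicate block the calls were 39 higher and 28 lower in hira-1(-), 21 and 41 in N2, and 24 and 5 for genotype by stage. Protein identity limits of 30% and 60% were not run. Members' N2 levels of a few reads limit the size of their ratios.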
